A study of Mus musculus with 35 samples.

Results

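The genes described here are 10 cytokine and cytokine-response genes chosen by symbol. They are the IL-1 ligands Il1a and Il1b, the receptor antagonist Il1rn, the decoy receptor Il1r2, the IL-6 family cytokines Il6, Il11 and Osm, and Tnf, Ptgs2 and Il18. Each had 1 probe set, and they were 10 of the 19908 genes that a probe set with a single gene symbol measured. The question was which of them were high in most mice given DSS, and which only in a few mice.

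Total RNA (200 ng) from the colon of 35 C57BL/6N mice, in 7 groups of 5, had been hybridised to Affymetrix mouse gene arrays. Dextran sulfate sodium (DSS), a polymer that injures the colon lining, was given at 3% in the drinking water for 5 days, and tissue was collected on day 12. The conventional groups were Reg3a-transgenic mice given DSS (DSS TG), wild-type mice given DSS (DSS WT), untreated transgenic mice (untreated TG) and untreated wild-type mice (untreated WT). Reg3a is a gene for an antibacterial lectin that the gut lining secretes. Neither the promoter nor the species of the transgene is stated in the labels. The other groups were axenic, that is germ-free, mice, all given DSS: recipients of flora from transgenic mice (axenic TG flora), recipients of flora from wild-type mice (axenic WT flora) and axenic controls. Transplantation came 3 weeks before DSS. The label of the controls puts DSS ahead of the transfer, and whether they ever received flora is not given. There was no untreated axenic group, so in axenic mice the flora history and DSS cannot be told apart against the conventional untreated mice. The treatment labels of conventional mice also mention a transfer, and the groups here follow titles and design text. Mice are named by genotype or flora and the number in their title (TG49, WT55), with CT for axenic controls.

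IL-1 alpha and IL-1 beta bind the same receptor on epithelial, stromal and immune cells and switch on NF-kB; the antagonist encoded by Il1rn and the decoy encoded by Il1r2 hold that signal back. IL-6, IL-11 and oncostatin M signal through the shared chain gp130 to STAT3, and TNF acts through its own receptors on NF-kB and cell death. Ptgs2 encodes COX-2, the inducible enzyme of prostaglandin synthesis and a target of IL-1 and TNF signalling. In the gut most of these transcripts are made by neutrophils, macrophages and stromal cells, whereas IL-18 is stored as a precursor in the epithelium itself.

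The DNA just before the transcription start of 4 of these genes is shown because the genes differed in how often they were high: Il1b and Ptgs2 in most DSS mice, Il6 in few, and Il18 in 0 to 4 of 25, depending on which untreated mice set the baseline. The windows hold 250 bases before the start, 5′ to 3′ on the gene's strand, from RefSeq on GRCm38.p6. The Il1b window lies at chr2:129371140-129371389 (minus strand), the Ptgs2 window at chr1:150099781-150100030 (plus), the Il6 window at chr5:30012864-30013113 (plus) and the Il18 window at chr9:50554450-50554699 (plus). Capitals mark matches, on either strand, to 4 short motifs: NF-kB (GGANTTTCC), C/EBP (TTNNGNAA), CRE (TGACGT) and AP-1 (TGANTCA).
Il1b: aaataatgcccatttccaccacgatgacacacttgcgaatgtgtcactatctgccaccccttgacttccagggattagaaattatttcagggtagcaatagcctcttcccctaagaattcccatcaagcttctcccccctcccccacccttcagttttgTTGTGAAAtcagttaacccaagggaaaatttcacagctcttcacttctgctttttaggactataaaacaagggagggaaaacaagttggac
Ptgs2: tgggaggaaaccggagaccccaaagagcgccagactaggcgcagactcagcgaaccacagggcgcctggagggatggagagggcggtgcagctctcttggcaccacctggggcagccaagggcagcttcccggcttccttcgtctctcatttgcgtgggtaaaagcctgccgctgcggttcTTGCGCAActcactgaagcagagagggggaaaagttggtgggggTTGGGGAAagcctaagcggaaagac
Il6: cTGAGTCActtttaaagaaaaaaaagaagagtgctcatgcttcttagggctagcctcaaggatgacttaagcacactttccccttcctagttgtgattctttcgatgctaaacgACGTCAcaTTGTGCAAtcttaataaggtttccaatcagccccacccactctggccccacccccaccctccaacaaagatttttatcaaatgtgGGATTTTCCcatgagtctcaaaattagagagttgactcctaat
Il18: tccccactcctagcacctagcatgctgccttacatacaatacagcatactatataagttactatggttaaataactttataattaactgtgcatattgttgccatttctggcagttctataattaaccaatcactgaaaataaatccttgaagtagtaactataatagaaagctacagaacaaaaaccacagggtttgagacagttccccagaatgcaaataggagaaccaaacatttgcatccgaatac
The Il6 window held all 4 motifs, with the NF-kB letters 43 to 35 bases before the start, the C/EBP letters 128 to 121, the CRE letters 136 to 131 and the AP-1 letters 249 to 243. The Il1b window held 1 C/EBP match, 91 to 84 bases before the start, and the Ptgs2 window held 2, at 69 to 62 and 25 to 18. None of the 4 motifs was found in the Il18 window. Of all 32851 RefSeq windows of the same length, 1.07% held the NF-kB letters, 36.8% the C/EBP letters, 6.47% the CRE letters and 6.75% the AP-1 letters. Over the 9 of 10 genes with a window, which leaves out Osm, 6 held a C/EBP match, 4 an AP-1 match, 1 a CRE match and 1 an NF-kB match. The 9 genes had 12 windows, and a gene counted when any of its windows matched. These counts are thus per gene and the shares per window, so they are not alike. These matches describe letters and show no binding.

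The values are log2 signal, so a difference of 1 is a 2-fold difference, and levels are compared between mice for 1 gene, not between genes. The mean of 10 measured epithelial markers averaged between 11.3 and 12.1 log2 signal in the 7 groups, so the labelled tissue had its markers. The mean of 4 smooth muscle genes averaged between 11.2 and 12.1, so the samples held more than the epithelium that the series title names. Arrays differed in spread: the standard deviation over probe sets averaged 1.96 in axenic WT flora mice and 1.73 in axenic controls, with 1.83 to 1.90 in the other 5 groups. The mean of 8 posterior Hox genes, which mark position along the gut, lay between 6.37 and 6.80 in DSS WT mice and between 6.88 and 7.96 in untreated WT mice, with no overlap. It lay between 6.87 and 7.02 in DSS TG mice and between 6.54 and 7.68 in untreated TG mice. In bulk tissue, more cells of a type and more RNA per cell cannot be told apart.

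In untreated mice 8 of the 10 genes varied little, and Il1rn and Il18 varied most. The standard deviations of Il1rn were 0.85 in untreated TG mice and 0.65 in untreated WT mice, and those of Il18 were 0.80 and 0.60. For the other 8 genes the highest standard deviation in either untreated group was 0.302, that of Il11, and that of Il6 was 0.04 in both. In none of the 10 genes did untreated TG mice differ from untreated WT mice in limma's moderated test (0 called at an adjusted p under 0.05 and 0 at an unadjusted p under 0.05), and over all genes 0.0753% were called. The 2 largest estimates were 0.25 for Osm and 0.24 for Il1b (log2, untreated TG minus untreated WT, SE 0.12 for each, adjusted p = 0.987 for each). Tnf was at 0.22, Ptgs2 at 0.21, Il18 at 0.16, Il1r2 at 0.13, Il6 at 0.01, Il11 at 0.00, Il1a at -0.02 and Il1rn at -0.12.

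In wild-type mice, 4 of the 10 genes rose with DSS: Il1b (14.7-fold), Ptgs2 (6.17-fold), Il1a (5.71-fold) and Tnf (2.04-fold). Over all genes 5.13% were called in this comparison and 3% were called as higher. With the posterior Hox mean as a covariate 0 of the 10 passed. All 5 DSS WT mice lay above all 5 untreated WT mice in those 4 genes and in Il6, 5 of the 10, against 3.2% of all genes. The median estimate over the 10 genes was 1.06, against -0.03 over all genes. In transgenic mice 0 of the 10 passed the same test, and 4.55% of all genes were called. There 3 of the 10 (Il1b, Tnf and Il18) had an unadjusted p under 0.05. Over all genes 26.2% did, so that count was near the background. The groups did not overlap in 2 of the 10, Il1b and Tnf, against 5.4% of all genes. The median estimate over the 10 genes was 0.64 there, against -0.02 over all genes.

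Of the 10 genes, Il1b had the largest DSS difference in conventional mice of both genotypes. Il1b, which encodes the secreted ligand, read 11.05, 8.001, 6.46, 7.48 and 7.11 log2 signal in DSS TG mice, against 6.00, 6.25, 6.27, 6.25 and 5.89 in untreated TG mice. It read 10.31, 8.003, 11.17, 9.75 and 9.58 in DSS WT mice, against 6.13, 6.04, 5.93, 5.64 and 5.73 in untreated WT mice. Every DSS mouse of each genotype was above every untreated mouse, but among DSS TG mice 1 mouse, DSS TG49, stood far above the other 4. The DSS difference was 3.87 ± 0.45 (log2, SE, n = 5 each) in wild-type mice, with an adjusted p of 0.00119 in limma. In transgenic mice it was 1.89 ± 0.67 with an adjusted p of 0.111, and without DSS TG49 it was smaller, 1.13, but passed (adjusted p = 0.036). Il1a, whose product is also active as a precursor inside and on the surface of cells, read 9.20, 5.21, 4.91, 5.01 and 4.94 in DSS TG mice and 4.56 to 5.06 in untreated TG mice. In DSS WT mice it read 8.57, 5.30, 8.55, 6.82 and 7.63, against 4.68 to 5.00 in untreated WT mice. So 4 of 5 DSS WT mice and 1 of 5 DSS TG mice were more than 1 above the median of the 10 untreated mice. The Il1a difference was 2.51 ± 0.52 in wild-type mice (adjusted p = 0.0212) and 1.02 ± 0.70 in transgenic mice (adjusted p = 0.36). The wild-type call of Il1a was lost without any 1 of 6 mice (untreated WT7, WT8, WT10 or WT11, DSS WT65 or WT52), with differences of 2.21 to 2.55 and adjusted p-values of 0.0502 to 0.0582.

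**Figure D1:**
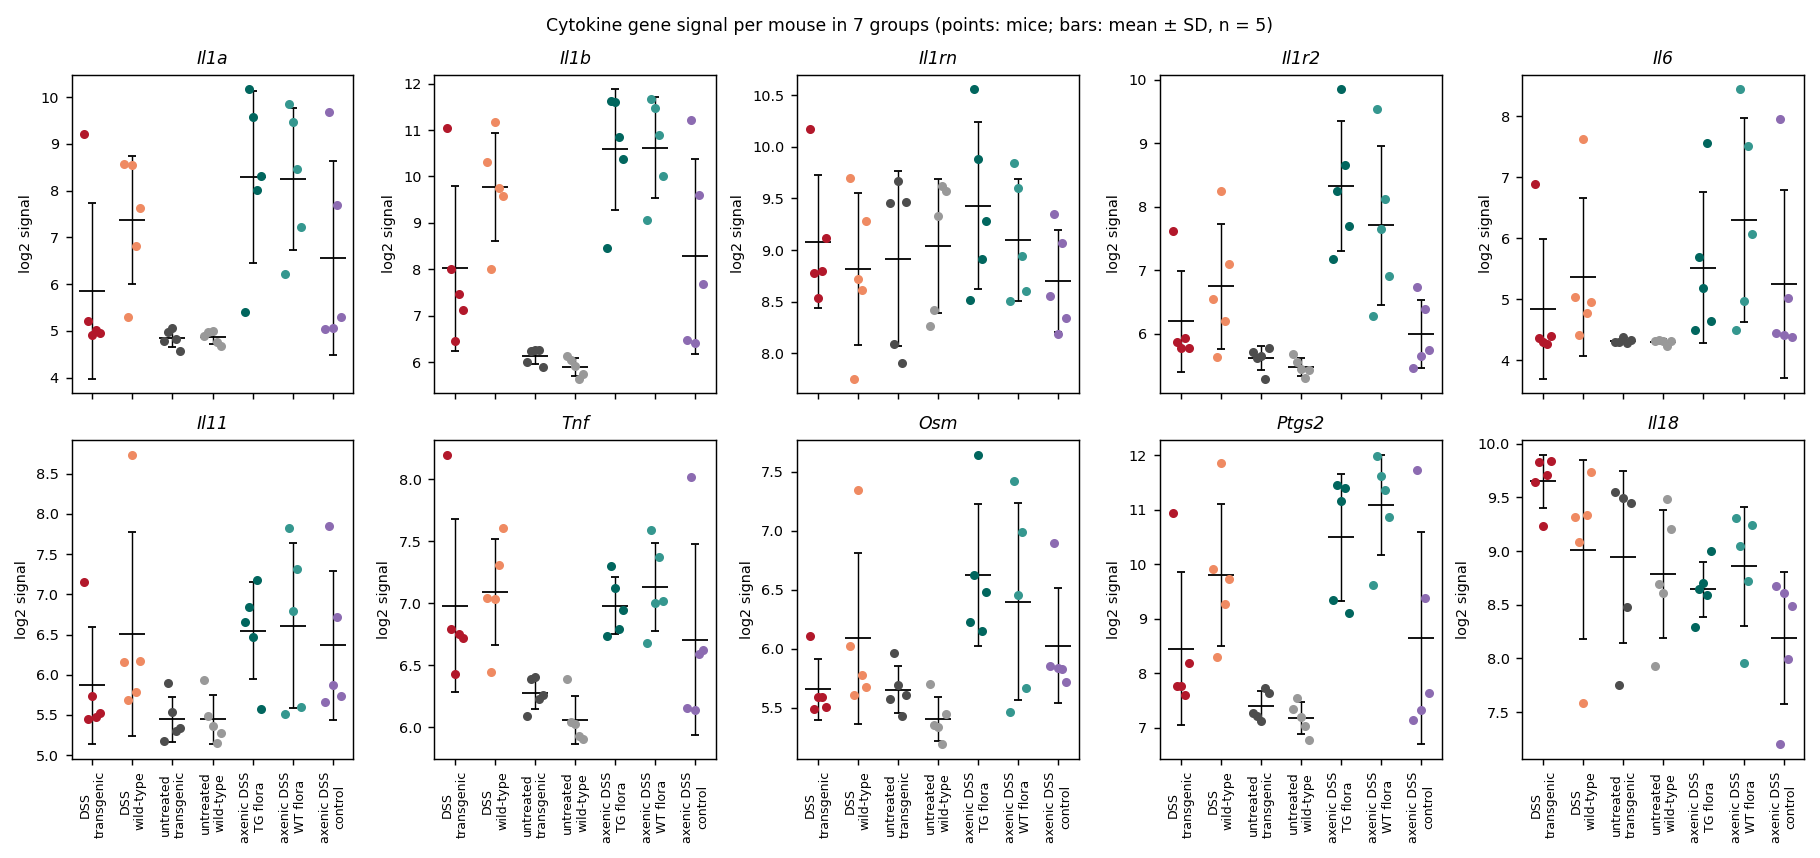
Log2 signal of each of the 10 genes (1 panel per gene, each with its own vertical axis) in the 7 groups; points are mice and bars are the mean ± SD of 5 mice. Il1b lies above 6.4 in all 25 DSS mice and below 6.3 in all 10 untreated mice, whereas Il1rn and Il18 overlap across groups.

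The inhibitors of IL-1 did not follow the ligands alike. Il1rn, the antagonist, ranged from 8.54 to 10.18 in DSS TG mice, from 7.91 to 9.67 in untreated TG mice, from 7.76 to 9.70 in DSS WT mice and from 8.27 to 9.62 in untreated WT mice, so its groups overlapped. Its DSS difference was 0.16 ± 0.40 in transgenic and -0.23 ± 0.38 in wild-type mice (adjusted p = 0.804 and 0.928), and the 95% interval in wild-type mice ran from -1.06 to 0.60. Il1r2, the decoy, read 7.62, 5.87, 5.78, 5.93 and 5.77 in DSS TG mice, against 5.29 to 5.78 in untreated TG mice. It read 6.54, 5.64, 8.24, 6.21 and 7.10 in DSS WT mice, against 5.31 to 5.67 in untreated WT mice, and DSS WT56 was inside the untreated range. The DSS difference of Il1r2 was 0.58 ± 0.31 in transgenic mice (adjusted p = 0.248) and 1.27 ± 0.39 in wild-type mice (adjusted p = 0.0955). Without DSS WT56 the wild-type difference of Il1r2 was 1.54 and passed (adjusted p = 0.0233).

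In conventional mice the IL-6 family cytokines were high in single mice. Il6, the STAT3-activating cytokine of the acute phase, read 6.89, 4.37, 4.29, 4.27 and 4.39 in DSS TG mice and 4.28 to 4.38 in untreated TG mice. It read 5.04, 4.41, 7.63, 4.78 and 4.96 in DSS WT mice and 4.24 to 4.33 in untreated WT mice. All DSS WT mice were thus above all untreated WT mice, but only DSS WT55 by more than 1. The Il6 difference was 0.53 ± 0.43 in transgenic mice (adjusted p = 0.434) and 1.06 ± 0.49 in wild-type mice (adjusted p = 0.316). Without DSS WT55 the wild-type difference of Il6 was smaller, 0.50, and passed (adjusted p = 0.045). Il11, a cytokine made mainly by stromal cells, read 7.16, 5.45, 5.74, 5.47 and 5.53 in DSS TG mice and 6.16, 5.68, 8.74, 5.79 and 6.17 in DSS WT mice. Untreated TG mice had 5.17 to 5.89 and untreated WT mice 5.16 to 5.94 for Il11. Its difference was 0.42 ± 0.30 in transgenic mice (adjusted p = 0.368) and 1.06 ± 0.50 in wild-type mice (adjusted p = 0.32). Osm, made by myeloid cells, read 6.11, 5.49, 5.59, 5.59 and 5.51 in DSS TG mice, against 5.43 to 5.96 in untreated TG mice. It read 6.03, 5.61, 7.35, 5.78 and 5.68 in DSS WT mice, against 5.19 to 5.70 in untreated WT mice. DSS TG49 and DSS WT55 were again the highest mice of their groups. The Osm difference was 0.00 ± 0.13 in transgenic mice (adjusted p = 0.994) and 0.68 ± 0.29 in wild-type mice (adjusted p = 0.263).

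Tnf, the cytokine of macrophages and T cells, was a little higher in every conventional DSS mouse than in the untreated mice of its genotype. It read 8.20, 6.79, 6.43, 6.75 and 6.72 in DSS TG mice, against 6.09, 6.39, 6.40, 6.23 and 6.26 in untreated TG mice. It read 7.04, 6.45, 7.03, 7.31 and 7.61 in DSS WT mice, against 6.39, 6.04, 6.03, 5.93 and 5.90 in untreated WT mice. The groups of each genotype did not overlap. The Tnf difference was 0.70 ± 0.27 in transgenic mice (adjusted p = 0.135) and 1.03 ± 0.19 in wild-type mice (adjusted p = 0.0126). Ptgs2, the inducible prostaglandin enzyme, read 10.93, 7.76, 7.76, 7.61 and 8.19 in DSS TG mice, against 7.27, 7.21, 7.12, 7.73 and 7.64 in untreated TG mice. It read 9.91, 8.29, 11.85, 9.28 and 9.72 in DSS WT mice, against 7.35, 7.56, 7.20, 7.04 and 6.78 in untreated WT mice. All DSS WT mice were above all untreated mice, while DSS TG46 lay inside the range of untreated TG mice. The Ptgs2 difference was 1.06 ± 0.54 in transgenic mice (adjusted p = 0.23) and 2.63 ± 0.51 in wild-type mice (adjusted p = 0.0155).

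Il18, the epithelial cytokine of the IL-1 family, overlapped between DSS and untreated mice of both genotypes. It read 9.65, 9.83, 9.23, 9.71 and 9.84 in DSS TG mice, against 9.55, 7.75, 9.50, 8.48 and 9.45 in untreated TG mice. The 2 groups overlapped, and the low untreated TG mice were TG31 and TG28. In DSS WT mice it read 9.32, 9.08, 7.58, 9.34 and 9.74, against 7.93, 8.70, 8.61, 9.49 and 9.21 in untreated WT mice. The lowest value was that of DSS WT55, the mouse with the highest Il6, Il11 and Osm of its group. The array of DSS WT55 also had the lowest spread of that group (SD over probe sets 1.71). The Il18 difference was 0.70 ± 0.32 in transgenic mice (adjusted p = 0.186) and 0.23 ± 0.39 in wild-type mice (adjusted p = 0.933).

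**Figure D2:**
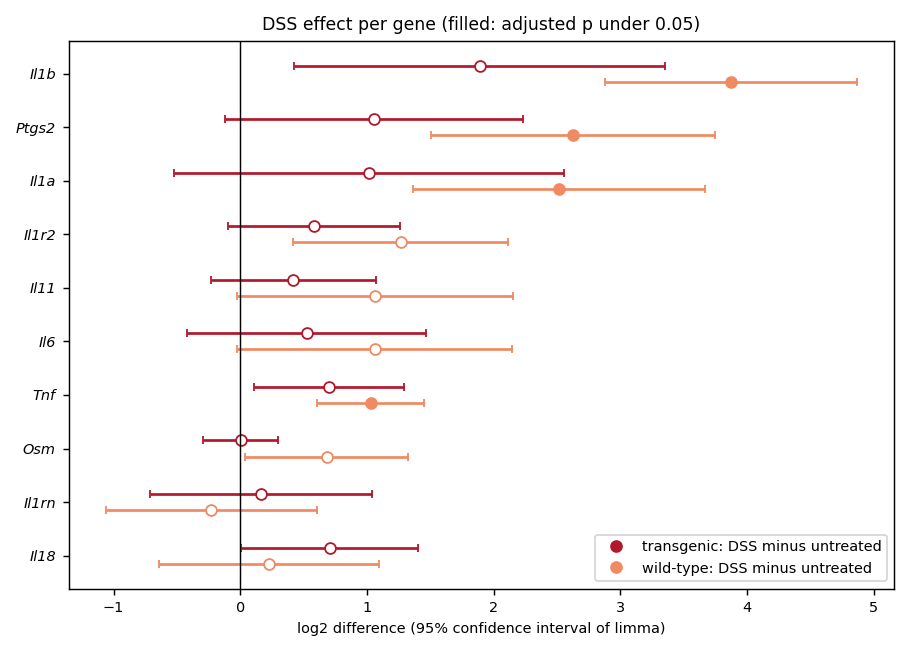
DSS minus untreated difference (horizontal axis, log2) for each gene in transgenic and wild-type mice, with 95% confidence intervals from limma; filled points passed at an adjusted p under 0.05. Wild-type points pass for Il1b, Ptgs2, Il1a and Tnf, and no transgenic point passes.

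The Hox values bear on the wild-type comparison, since the 2 groups did not overlap in them. With the posterior Hox mean as a covariate, a choice made after seeing the data, 0 of the 10 genes passed and 11 of the 19908 genes passed in all. The differences were then 3.45 for Il1b (adjusted p = 0.092), 2.40 for Il1a (adjusted p = 0.148), 1.98 for Ptgs2 (adjusted p = 0.187) and 0.97 for Tnf (adjusted p = 0.123). Il11 was -0.06 in that model (adjusted p = 0.966), against 1.06 without the covariate, and Il18 read 1.84 (adjusted p = 0.0966). DSS and the position sampled cannot be told apart in wild-type mice. In transgenic mice, whose groups overlapped in Hox level, the covariate left Il1b at 1.87 (adjusted p = 0.132), against 1.89 without it.

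The DSS effect in transgenic mice was smaller than in wild-type mice by estimate for 8 of the 10 genes, but the difference between the effects passed for 0 of them. The interaction in limma called 0.156% of all genes. An unadjusted p under 0.05 was found for 1 of the 10, Il1b, and for 7.42% of all genes, so that count was near the background. The interaction estimate was above 0 for 2 of the 10 genes and for 45.2% of all genes. For Il1b it was -1.98 ± 0.88 (log2, DSS effect in TG minus DSS effect in WT, 95% interval -3.82 to -0.15, adjusted p = 0.593). For Ptgs2 it was -1.57 ± 0.80 (interval -3.25 to 0.11, adjusted p = 0.718) and for Il1a -1.50 ± 0.95 (interval -3.49 to 0.50, adjusted p = 0.845). The other estimates were -0.68 for Il1r2 and Osm, -0.64 for Il11, -0.54 for Il6, -0.33 for Tnf, 0.39 for Il1rn and 0.48 for Il18. Set directly against DSS WT mice, DSS TG mice differed in 0 of the 10 genes, with 0 at an unadjusted p under 0.05 and 0.00502% of all genes called. The estimate for Il1b was -1.75 ± 0.82 (interval -3.54 to 0.05, adjusted p = 0.994). Il1a followed at -1.52 and Ptgs2 at -1.36, then Il11 at -0.64, Il1r2 at -0.55, Il6 at -0.52, Osm at -0.43 and Tnf at -0.11, while Il1rn was at 0.27 and Il18 at 0.64. With limma's array weights, which give mice far from their group less weight, Il1b passed both tests (-2.21, adjusted p = 0.0303, and -2.005, adjusted p = 0.036). The posterior Hox mean did not overlap between DSS TG mice (6.87 to 7.02) and DSS WT mice (6.37 to 6.80). Genotype and the position sampled thus cannot be told apart in the direct comparison, and the interaction includes the same DSS WT mice. Neutrophil markers also varied between these mice: the mean of 13 neutrophil genes ranged from 5.93 to 8.17 in DSS TG mice and from 6.29 to 9.15 in DSS WT mice, and its part in these estimates was not tested.

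Axenic mice given flora and DSS took both of the highest group means for 8 of the 10 genes, all but Tnf and Il18. For Tnf the highest mean was 7.13 in axenic WT flora mice, followed by 7.09 in DSS WT mice. Il1b read 8.45, 11.63, 11.61, 10.85 and 10.37 in axenic TG flora mice, 9.07, 11.68, 11.47, 10.88 and 10.01 in axenic WT flora mice, and 6.48, 11.23, 6.40, 9.60 and 7.67 in axenic controls. Ptgs2 read 9.35, 11.45, 11.16, 11.40 and 9.11 in axenic TG flora mice, 9.62, 11.99, 11.63, 11.36 and 10.87 in axenic WT flora mice, and 7.14, 11.73, 7.33, 9.38 and 7.64 in axenic controls. Il1r2 read 7.18, 8.24, 9.86, 8.65 and 7.70 in axenic TG flora mice, 6.29, 9.55, 7.66, 8.13 and 6.92 in axenic WT flora mice, and 5.47, 6.74, 5.65, 6.39 and 5.75 in axenic controls. Axenic CT517 was as high as the flora recipients for Il1b and Ptgs2, and in Il1r2 every axenic TG flora mouse was above every control. By group mean, axenic mice with TG or WT flora ranked 1 and 2 of 7 for Il1a, Il1b, Il1rn, Il1r2, Il6, Il11, Osm and Ptgs2. For 7 of the 10 genes no neighbours in the order of group means differed by more than the larger of their standard deviations. Beyond it were DSS TG over untreated TG for Il1b, and untreated TG over untreated WT for Il1b, Tnf and Osm.

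Flora from transgenic and from wild-type mice could not be separated by these genes. Axenic TG flora mice differed from axenic WT flora mice in 0 of the 10 genes by limma, 0 had an unadjusted p under 0.05, and 0% of all genes were called, although 34.4% of all genes had an unadjusted p under 0.05. The estimates ran from -0.78 ± 0.78 for Il6 to 0.62 ± 0.61 for Il1r2 (axenic TG flora minus axenic WT flora), and the interval for Il1b (-0.04) ran from -1.44 to 1.36. Between the extremes lay Ptgs2 (-0.60), Il18 (-0.21), Tnf (-0.15), Il11 (-0.07), Il1a (0.05), Osm (0.23) and Il1rn (0.33). Against axenic controls, axenic WT flora mice had higher Ptgs2 (2.45 ± 0.81, adjusted p = 0.0194), Il1b (2.35 ± 0.89, adjusted p = 0.0348) and Il1r2 (1.71 ± 0.51, adjusted p = 0.0126). That is 3 of the 10 called as higher. Over all genes 32.1% were called as higher and 67.3% in either direction, so the members' share was near the background. The 7 genes that did not pass ran from 0.25 for Il11 through Osm (0.37), Il1rn (0.40), Tnf (0.43), Il18 (0.66) and Il6 (1.05) to 1.69 for Il1a. The arrays of these 2 groups differed in spread, and its part was not tested. Quantile normalization kept 1 of the 3, Il1r2, leaving out the 7 arrays of lowest spread kept Ptgs2, and the Hox covariate kept none of them but called Il18 (1.35, adjusted p = 0.0111). Without axenic CT517, 5 of the 10 were called, with Il1a (2.48) and Tnf (0.75) added, and the share of all genes called in that setting is not given. Axenic TG flora mice differed from controls in 0 of the 10, with 0.337% of all genes called. An unadjusted p under 0.05 was found for 2 of the 10 and for 18.1% of all genes, so that count was near the background. The estimates of the other 9 were 2.31 for Il1b, 1.85 for Ptgs2, 1.74 for Il1a, 0.73 for Il1rn, 0.60 for Osm, 0.45 for Il18, 0.27 for Tnf and Il6, and 0.18 for Il11. Il1r2 was nearest to passing (2.33 ± 0.44, adjusted p = 0.0559), and it passed in each of 5 other settings (1 model of the 35 arrays, weights per array, quantile normalization, a trended robust variance, genes of low signal left out) (adjusted p = 0.00162 to 0.0464). Without axenic TG922, Il1r2 (2.61, adjusted p = 0.0052) and Il1b (2.84, adjusted p = 0.0409) passed. Without axenic TG713, Il1r2 passed alone (1.95, adjusted p = 0.049). The number of all genes called also differed widely between settings and without 1 mouse, as given further below. These passes therefore have no share of all genes beside them. The 2 comparisons with controls share the control mice.

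To separate genes that were high in most mice from those high in few, a DSS mouse was counted as raised for a gene when it was above all 10 untreated mice and at least 1 above their median. By that count Il1b was raised in 22 of the 25 DSS mice, Ptgs2 in 18, Il1a in 16 and Il1r2 in 13. So 4 of the 10 genes were raised in at least 13 of 25 mice, against 1.48% of all genes. These counts pool unlike groups. In DSS TG, DSS WT, axenic TG flora, axenic WT flora and axenic control mice, Il1b was raised in 4, 5, 5, 5 and 3. Ptgs2 was raised in 1, 5, 5, 5 and 2, Il1a in 1, 4, 4, 5 and 2, and Il1r2 in 1, 2, 5, 4 and 1. For axenic mice the baseline was the untreated conventional mice. Il11 was raised in 11 mice, Il6 in 8, Tnf in 7, Osm in 6, Il1rn in 1 and Il18 in none. The count for Il18 was 4 without any 1 of 5 untreated mice (WT10, WT11, TG26, TG29 or TG631), and 1 when each genotype was its own baseline. In all, 9 of the 10 were raised in at least 1 mouse, against 11.6% of all genes. The counts depend on the size asked for: 23 of 25 DSS mice were above the highest untreated mouse for Tnf and 22 for Il6. All 25 were above it for Il1b, 21 for Il1a and Ptgs2, 20 for Il1r2, 13 for Il11, 12 for Osm and 5 for Il1rn and Il18. The shares of all genes for these counts are not given. For Il6 some mice were barely above: the highest untreated mouse read 4.376, axenic CT093 4.378, CT465 4.417 and CT677 4.45. The arrays of CT465 and CT677 were among those of lowest spread, and the part of spread in these counts was not tested. With a 1.5-fold rise in place of 2-fold, 7 genes were raised in at least 13 mice, with Tnf (16), Il6 (13) and Il11 (13) added. With a 4-fold rise, Il1b (17), Ptgs2 (16) and Il1a (14) were, while Tnf and Osm were raised in 1 mouse each. The shares of all genes at the 1.5-fold and 4-fold sizes are not given, so these counts have no background beside them.

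The size of the rise separated the genes as well. The median DSS mouse was 13.3-fold above the untreated median for Il1b, 6.84-fold for Il1a, 5.22-fold for Ptgs2 and 2.23-fold for Il1r2. It was 1.75-fold above for Il11, 1.73-fold for Tnf, 1.56-fold for Il6 and 1.26-fold for Osm. The highest mouse was 50.5-fold above for Il1b and 40.1-fold for Il1a, but only 4.10-fold for Tnf and 4.39-fold for Osm. For Il6 the highest mouse was 17.6-fold above and the median mouse 1.56-fold, the widest gap between the 2 among genes with a median under 2-fold. Il18 had a median of 1.04-fold and a highest mouse of 1.85-fold. Il6 lay near the low end of the array signal in untreated mice, and the part of that in its folds was not tested.

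**Figure D3:**
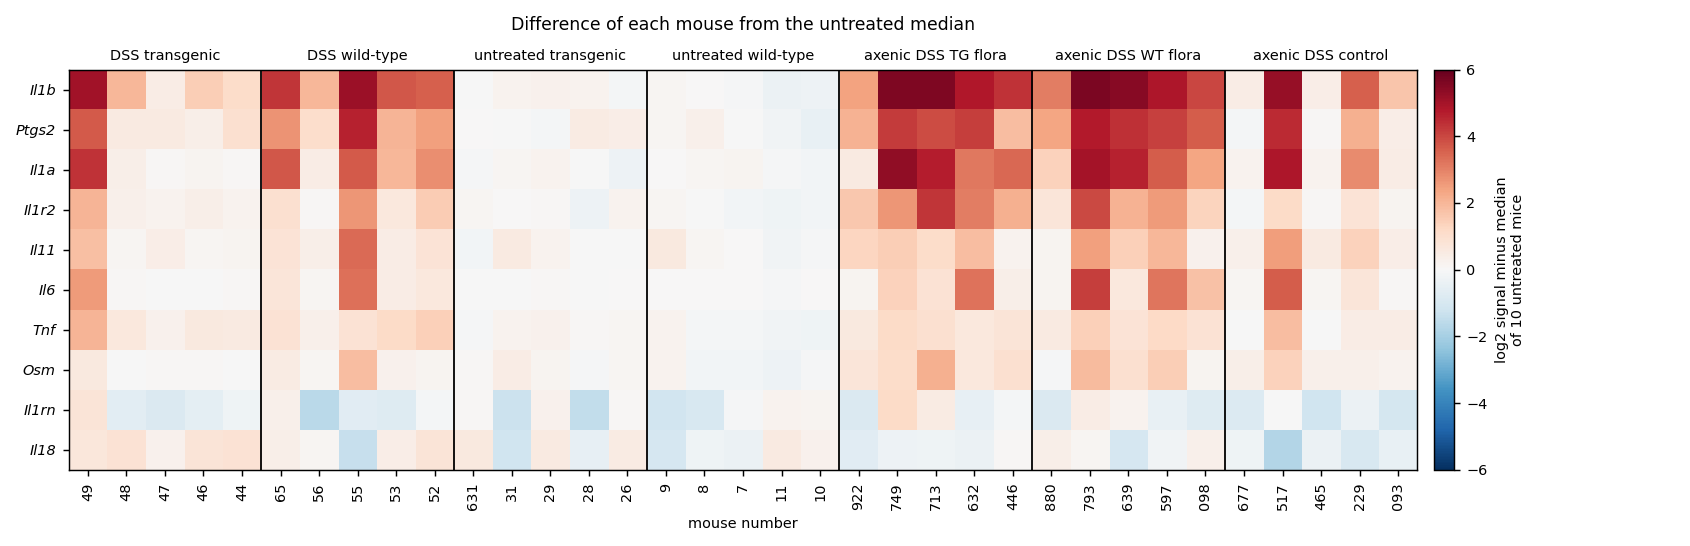
Difference of each mouse from the median of the 10 untreated mice (colour, log2) for the 10 genes (down) and 35 mice (across, by group and mouse number). Il1b is raised in 22 of 25 DSS mice, and DSS TG49, DSS WT55 and axenic CT517 are high in more genes than the other mice of their groups.

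Mouse by mouse, the number of these genes raised ran from 0 to 9. Axenic TG749 had 9 raised, all but Il18. Axenic WT793 and WT597 and axenic CT517 had 8 each, and DSS WT55 and DSS TG49 had 7 each. These 6 mice were 6 of the 8 raised for Il6, 5 of the 6 raised for Osm and 5 of the 7 raised for Tnf. They were picked by counts that include these genes, so that overlap was largely set by the choice. At the other end, DSS TG47 and axenic CT677 and CT465 had 0 raised. In the other 4 DSS TG mice than TG49 the number was 0 or 1, and the gene was Il1b each time. DSS WT mice had 3, 2, 7, 4 and 5 raised, axenic TG flora mice 4, 9, 6, 6 and 4, and axenic WT flora mice 3, 8, 5, 8 and 5. Axenic controls split into CT517 with 8, CT229 with 4, CT093 with 1 and the 2 mice with 0.

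In conventional mice neutrophil genes were highest in the mice with most genes raised. S100a8, which encodes a calcium-binding protein abundant in neutrophils, read 9.58 in DSS TG49 and 5.43 to 6.07 in the other DSS TG mice. It read 11.37 in DSS WT55 and 6.85 to 9.33 in the other DSS WT mice, against 5.31 to 5.62 in all 10 untreated mice. In axenic mice S100a8 ran from 8.98 to 11.79 with TG flora, from 7.02 to 11.51 with WT flora and from 5.47 to 8.31 in controls, where CT517 was the highest. The order was not kept in every group: axenic TG749, with 9 genes raised, read 10.31, while axenic TG713, with 6 raised, read 11.79. CT517, with 8 raised, was below all 5 axenic TG flora mice in S100a8. Over the 35 mice, deviations from the group mean in S100a8 and in each of the 10 genes were correlated, with permutation of mice within groups. Il1r2 was closest (r = 0.91, rho = 0.89, adjusted p = 2e-05, r = 0.88 without DSS TG49 and DSS WT55). Il1a followed (r = 0.87), then Ptgs2 (r = 0.86), Il1b (r = 0.86), Il11 (r = 0.84), Osm (r = 0.83) and Il6 (r = 0.81). Tnf (r = 0.69, rho = 0.59, adjusted p = 0.00147) and Il1rn (r = 0.55, rho = 0.52, adjusted p = 0.00122) were looser. Il18 ran the other way (r = -0.40, rho = -0.35, adjusted p = 0.024), and r was -0.27 without the same 2 mice. All 10 relations passed after adjustment over the 10. The share of all genes that went with S100a8 is not given, so this count has no background beside it. Whether these mice held more neutrophils or more transcript per cell was not tested.

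**Figure D4:**
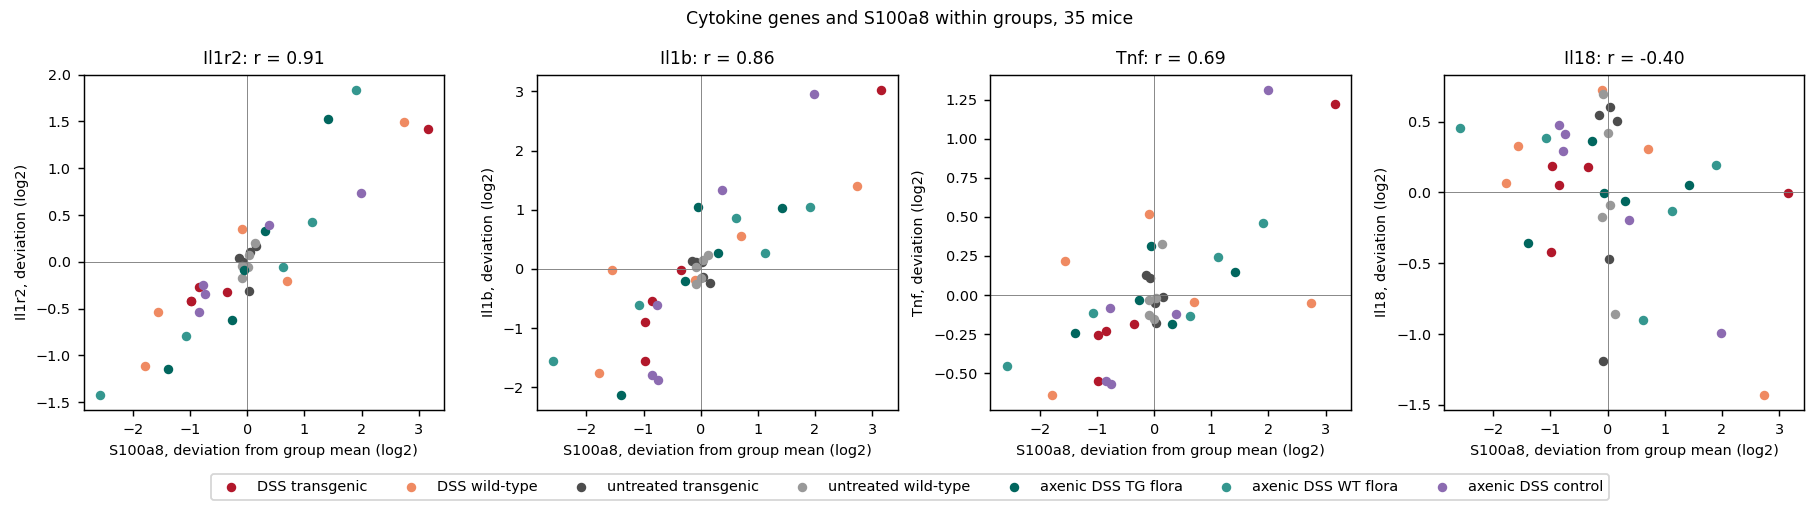
Deviation from the group mean of Il1r2, Il1b, Tnf and Il18 (vertical axes, log2) against that of S100a8 (horizontal axis, log2), 1 point per mouse, coloured by group. The points rise together for Il1r2 and Il1b, more loosely for Tnf, and fall for Il18.

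The genes also went together with each other within groups. Of 45 pairs, 39 were correlated over the 35 mice after Benjamini-Hochberg adjustment (100000 permutations within groups, for which 1e-05 is the smallest p). The share among pairs of other genes is not given, so this count has no background beside it. Il1a and Il1b were the tightest pair (r = 0.96, rho = 0.91, r = 0.93 without DSS TG49 and axenic CT517). Il1b with Ptgs2 (r = 0.92, rho = 0.89), Il6 with Il11 (r = 0.86, rho = 0.75) and Il1r2 with Osm (r = 0.85, rho = 0.69) were close as well (adjusted p = 0.000138 or less for each r). Some pairs rested partly on extreme mice: Tnf with Ptgs2 went from r = 0.77 to 0.48, and Il1a with Il6 from r = 0.68 to 0.47, when the 2 mice farthest out in the first gene were left out. Il18 was negative with 8 of the other 9 genes, most with Il11 (r = -0.66, rho = -0.63, adjusted p = 0.000774, r = -0.40 without 2 mice). Its only positive partner was Il1rn (r = 0.26, adjusted p = 0.189). Il18 with Il6 was not stable (r = -0.36, and 0.03 without 2 mice). Among the 6 pairs that did not pass, 4 were with Il18 (Il1a, Il1r2, Tnf and Il1rn) and 3 with Il1rn (Il6, Il11 and Il18), the pair of these 2 counted in both.

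**Figure D5:**
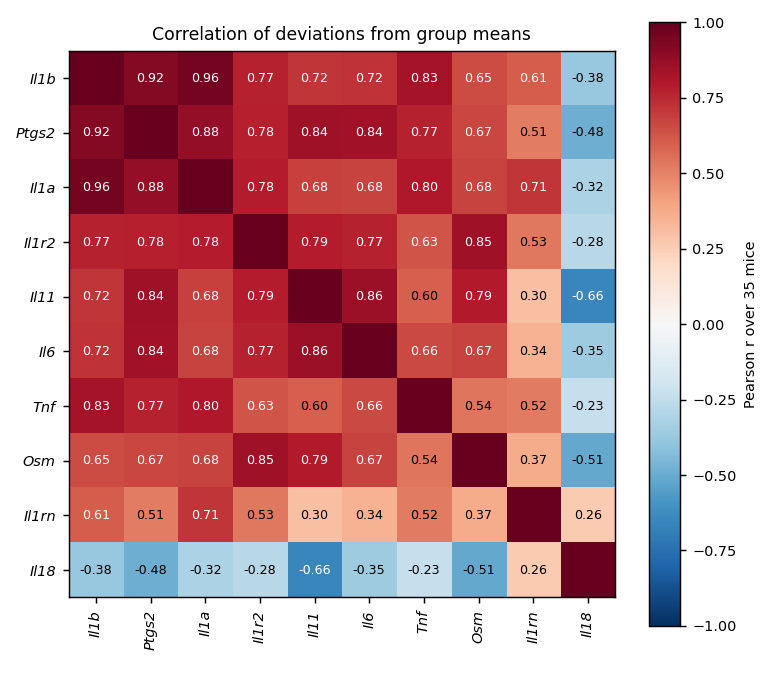
Pearson correlation, over 35 mice, of deviations from group means for each pair of the 10 genes (number and colour). The 8 genes other than Il1rn and Il18 are all positive with each other (0.54 to 0.96), Il1rn is weaker, and Il18 is negative except with Il1rn.

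Leaving out the 10 genes themselves and genes of predicted or unnamed type, the genes whose pattern over the 35 mice was most like each of the 10 differed by gene. Il1a and Il1b shared their 3 nearest such genes, Plek (a myeloid and platelet signalling protein), Lilr4b (a myeloid inhibitory receptor) and Acod1 (the itaconate-making enzyme of activated macrophages), with r = 0.94 to 0.98. Il1r2 was nearest to Cxcr2, a neutrophil chemokine receptor (r = 0.96), Alox5ap, needed for leukotriene synthesis, and Itgam, an integrin of myeloid cells. Osm was nearest to Adam8 (r = 0.96), Mmp8, the neutrophil collagenase, and Ifitm6. Il6 was nearest to the monocyte chemokine Ccl2 (r = 0.95), Adamts1 and Cd86, and Il11 to Cemip (r = 0.92), the growth factor Ereg and Ccl2. Tnf was nearest to Nfkbie, an NF-kB inhibitor (r = 0.86), and to the chemokines Ccl3 and Cxcl2, and Ptgs2 to Cxcl2 (r = 0.92), Cemip and Timp1. Il1rn was nearest to Fzd1 (r = 0.86), Ubxn8 and Pros1, and Il18 to Mgat4a (r = 0.92), Slc25a36 and Tm4sf20. These are descriptions over 35 mice, each of which gave all its values on 1 array.

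Il18 levels went with those of the posterior Hox genes. Over the 35 mice the deviation of Il18 from its group mean went with that of the Hox mean (r = 0.69, rho = 0.69, permutation adjusted p = 0.0001 over 10 genes, r = 0.68 without untreated WT9 and untreated TG29). The untreated mice TG31 and TG28, with the lowest Il18 of their group, had Hox means of 6.54 and 6.70, against 7.05 to 7.68 in the other 3. Untreated WT9 had the lowest Il18 (7.93) and the lowest Hox mean (6.88) of its group. Il1rn leaned the same way without passing (r = 0.43, adjusted p = 0.0746), while Il11 (r = -0.37, adjusted p = 0.011) and Ptgs2 (r = -0.28, adjusted p = 0.0357) ran opposite by Pearson's r but not by Spearman's rho (adjusted p = 0.0669 and 0.083). These relations were examined after the values had been seen. Il1b (r = -0.18), Il1a (r = -0.12) and Tnf (r = -0.08) did not pass. The arrays of untreated WT9, untreated TG31, DSS WT55, axenic TG922 and axenic CT517 were among the 7 of lowest spread (SD 1.64 to 1.76). Each had the lowest Il18 of its group. Axenic CT677 and CT465, also among the 7, had the highest Il18 of the controls (8.67 and 8.61). The part of array spread in Il18 was not tested.

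Other genes of the same pathways were taken from lists by role. Over all genes, 3% were called as higher with DSS in wild-type mice and 3.46% in transgenic mice. In wild-type mice 5 of 9 measured NF-kB inhibitors and targets rose with DSS, among them Nfkbiz (1.31, adjusted p = 0.00155), the RNase Zc3h12a (0.95, adjusted p = 0.00603), Nfkbia (0.81, adjusted p = 0.0206) and Nfkb2 (0.52, adjusted p = 0.024). In transgenic mice 4 of the 9 rose: Nfkbiz (1.38, adjusted p = 0.00701), Zc3h12a (1.04, adjusted p = 0.0134), Rel (1.00, adjusted p = 0.0369) and Nfkbia (0.75, adjusted p = 0.0487). The median of the 9 was 0.82 in wild-type and 0.60 in transgenic mice. In the IL-6 family list the receptor chain Osmr (1.61, adjusted p = 0.00918), the feedback inhibitor Socs3 (1.60, adjusted p = 0.00603) and Bcl3 (0.97, adjusted p = 0.00775) rose in wild-type mice, 3 of 12. In transgenic mice Bcl3 (1.14, adjusted p = 0.00815) and Stat3 (0.60, adjusted p = 0.032) rose, 2 of 12. Of 11 TNF family genes, the receptor Tnfrsf1b (1.59, adjusted p = 0.00544) and Tnfaip2 (1.39, adjusted p = 0.021) rose in wild-type mice. In transgenic mice Tnfrsf1b (1.17, adjusted p = 0.0204), the adaptor Tradd (0.52, adjusted p = 0.0474) and Tnfrsf1a (0.68, adjusted p = 0.0487) rose.

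The other measured genes of the IL-1 pathway lists stayed below the threshold in conventional mice, with 1 exception. The IL-1 receptor gene Il1r1, and Il1rl1 and Irak4, were not among the genes measured. Il33, an alarmin of the IL-1 family, rose in wild-type mice (1.23 ± 0.26, adjusted p = 0.0213), 1 of 8 ligands and inhibitors, and 0 of the 8 passed in transgenic mice by limma, with 2 at an unadjusted p under 0.05. In both genotypes 0 of 9 measured IL-1 and IL-18 receptors and adaptors passed, with an unadjusted p under 0.05 for 0 in transgenic and 3 in wild-type mice. In both genotypes 0 of 9 inflammasome genes passed, with 6 at an unadjusted p under 0.05 in transgenic and 3 in wild-type mice. Over all genes an unadjusted p under 0.05 was found for 26.2% in transgenic and 16.6% in wild-type mice. Those shares are the background for each such count here. Of 12 prostanoid enzymes and receptors, Hpgds, a prostaglandin D synthase, fell by 0.52 in wild-type mice (adjusted p = 0.0389), and 0 passed in transgenic mice, with 3 at an unadjusted p under 0.05. Genes of cells that make these cytokines moved beside them: in wild-type mice 5 of 13 neutrophil genes and 5 of 11 monocyte and macrophage genes rose, with medians of 1.30 and 0.84. In transgenic mice 0 of the 13 (2 at an unadjusted p under 0.05) and 3 of the 11 rose, with medians of 0.72 and 0.80. Over all genes 3% were called as higher in wild-type and 3.46% in transgenic mice. Of 6 fibroblast genes, 3 rose in wild-type mice (median 0.91) and 2 in transgenic mice (median 0.56). Of 3 pancreas genes 0 passed in either genotype by limma, with medians of -2.65 in wild-type mice (3 at an unadjusted p under 0.05) and -1.93 in transgenic mice (0 at an unadjusted p under 0.05). Their mean ranged from 6.25 to 9.89 in DSS WT mice and from 6.57 to 12.67 in untreated WT mice. The part of cell numbers in the cytokine values was not tested.

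Among axenic mice the same lists were read against a background of 67.3% of all genes called for WT flora, 32.1% as higher and 35.2% as lower. There 7 of 9 inflammasome genes, 7 of 9 NF-kB genes and 9 of 11 TNF family genes were higher in axenic WT flora mice than in axenic controls, and 1 of the 11 was lower. Of 8 IL-1 family ligands and inhibitors 0 were higher and 3 lower, and of 9 receptors and adaptors 5 were higher. With TG flora, against the same controls, the inflammasome adaptor Pycard (0.65, adjusted p = 0.0483) and Zc3h12a (0.84, adjusted p = 0.0245) passed, and no other gene of the 7 lists did. S100a8 was higher by 4.05 in that comparison (adjusted p = 0.0162), with 4 of 13 neutrophil genes called. The 3 pancreas genes were higher in axenic WT flora mice than in axenic controls (median 3.53, 3 of 3 called), and their part in that comparison was not tested.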

How the data were processed

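Colon RNA was hybridised to 35 Affymetrix Mouse Gene 1.0 ST arrays, 1 for each mouse. The deposited values are log2 signal that the authors made with RMA in Affymetrix Expression Console 1.1, per the submitters' processing notes; no genome build or annotation release is stated there. Of 28090 probe sets, 21639 had 1 gene symbol in the platform annotation, 1539 had several and 4912 were not listed. For 990 genes with several probe sets the one of highest mean signal was kept, which left 19908 genes. The number of arrays limits the precision.

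Each comparison was fitted over its own groups only, with limma 3.58.1 in R 4.3.3 (lmFit, eBayes, two-sided), and p-values were adjusted by Benjamini-Hochberg over all 19908 genes, called at an adjusted p under 0.05. Group means were subtracted before correlations, with 100000 permutations of mice within groups (Python 3.11.15, numpy 2.4.6, scipy 1.17.1). The fits and correlations were tested on simulated data. The limma p-values set a group difference against the spread between mice, moderated over all genes, and those of correlations come from the permutations.

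All 10 genes are named in each comparison. From each role list up to 4 called genes with the smallest p are named, and the 3 genes most correlated with each of the 10, leaving out the 10 themselves and genes of predicted or unnamed type, are its nearest. The 10 genes and all lists were chosen with earlier results of these data known. The posterior Hox covariate was added after the data were seen. Other settings were 1 model of the 35 arrays, weights per array, quantile normalization, a trended robust variance, other probe set rules, a signal filter, leaving out 7 arrays of low spread and leaving out each mouse. Promoter windows came from RefSeq (GRCm38.p6).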

Additional observations from a re-analysis of the deposited data

Results flagged for a closer look

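In 15 of 70 combinations of gene and group, 1 mouse lay far from the other 4, its gap to the nearest being more than 0.71 of the group's range; chance alone gives about 5% of groups. DSS TG49 accounted for 7: 9.20 for Il1a, 7.62 for Il1r2, 6.89 for Il6, 7.16 for Il11, 8.20 for Tnf, 6.11 for Osm and 10.93 for Ptgs2. DSS WT55 was apart for Il6 (7.63), Il11 (8.74) and Osm (7.35). Axenic CT517 was apart for Il6 (7.96), Tnf (8.02) and Osm (6.90). Among untreated WT mice, WT11 was low for Il6 (4.24) and WT9 high for Tnf (6.39).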

How the results depend on the processing

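No paired analysis was possible because no mouse number is shared between groups. Of 1596 recomputed estimates, 1461 kept direction and side of the threshold and 81 changed sign, in 30 of 80 combinations of gene and comparison. With array weights the count called was 7 of 10 for DSS WT, 2 for DSS TG, 1 for the interaction, 1 for DSS TG against DSS WT, and 5 each for axenic WT flora and axenic TG flora against control. The share of all genes called with array weights is not given for axenic WT flora. The Hox covariate gave 0 for DSS WT and 1 for axenic WT flora. For axenic WT flora, quantile normalization and leaving out 7 arrays of low spread gave 1. For axenic TG flora, 1 model of all arrays, quantile normalization, trend and robust variance, and the 40th percentile filter gave 1. With a 1.5-fold rise 7 genes were raised in at least 13 mice, and the share of all genes at that size is not given. Leaving out 1 mouse gave 3 to 5 for DSS WT, 0 to 1 for DSS TG (1 without DSS TG49), 2 to 5 for axenic WT flora (5 without axenic CT517) and 0 to 2 for axenic TG flora (2 without axenic TG922, 1 without axenic TG713). The causes of these changes were not tested.

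Over all genes, DSS WT calls numbered 1022, with 11 under the Hox covariate, 1804 and 1870 with quantile normalization and all arrays, 5843 with array weights and 424 to 1277 without 1 mouse. DSS TG calls numbered 905, with 600, 587 and 3266 under all arrays, without 7 arrays and under array weights, and 178 to 1668 without 1 mouse. The interaction called 31 (0 with Hox, 232 with array weights, 4 to 59 without 1 mouse), untreated TG against WT 15 (4 with Hox, 58 with weights, 4 to 20 without 1 mouse) and DSS TG against DSS WT 1 (3 to 339 under quantile, 7 arrays left out, all arrays and weights, 1 to 11 without 1 mouse). Axenic TG against WT flora called 0 (1927 with all arrays, 4886 with weights, up to 4700 without 1 mouse). Axenic WT flora called 13401 (6637, 5159 and 9294 with quantile, 7 arrays left out and Hox, and 7877 of 11945 with the signal filter), and axenic TG flora 67 (30 with Hox, 152 with quantile, 661 with all arrays, 6655 with weights, 27 to 5307 without 1 mouse).

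Sign changes of estimates that did not pass either way were as follows. DSS TG against untreated TG: Il1rn was -0.35 with array weights, -0.0022 with quantile and -0.043 without 7 arrays, and Osm was -0.064 with weights and -0.0048 with Hox. Interaction: Il18 was -0.10 with weights and -0.99 with Hox, Il6 was 0.0202 without 7 arrays, and with Hox Il1rn was -1.03 and Il11 0.0197. Untreated TG against WT: Il1rn was 0.017 with weights and 0.75 with Hox, Il6 was -0.011 and Il11 -0.059 with quantile, and Il11 was -0.24 with Hox. DSS TG against DSS WT: Il6 was 0.0448 without 7 arrays and 0.74 with Hox, where Il1rn was -0.13, Il11 0.56, Osm 0.33 and Il18 -0.44. Axenic TG against WT flora: Il1b was 0.35 with weights, 0.25 with quantile, 0.49 without 7 arrays and 0.0399 with Hox, Il11 was 0.0154 with weights and 0.0553 with Hox, and Il18 was 0.12 with quantile. Axenic WT flora against control: Il1rn was -0.24 with quantile and -0.14 with Hox, where Il1a was -0.30, Il11 -0.59 and Osm -0.17. Axenic TG flora against control, with Hox: Il6 was -0.80 and Il11 -0.39. DSS WT, with Hox: Il1rn was 1.15 and Il11 -0.058.

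Without 1 mouse, estimates ranged across 0 as follows. DSS WT: Il1rn -0.45 to 0.0362. DSS TG: Il1rn -0.11 to 0.35 and Osm -0.11 to 0.0794. Interaction: Il6 -1.05 to 0.0301. Untreated TG against WT: Il1rn -0.32 to 0.13, Il18 -0.0545 to 0.46, Il1a -0.0776 to 0.0454, Il11 -0.11 to 0.13 and Il6 -0.00088 to 0.0245. DSS TG against DSS WT: Il6 -1.03 to 0.0448, Tnf -0.42 to 0.0274 and Il1rn -0.0055 to 0.49. Axenic TG against WT flora: Il1a -0.46 to 0.77, Il1b -0.43 to 0.49, Il11 -0.34 to 0.24 and Osm -0.0298 to 0.48. Axenic WT flora against control: Il11 -0.0566 to 0.62. Axenic TG flora against control: Il6 -0.24 to 0.95.

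With 5 mice a group and 1 or 2 mice far above the rest, spread limits what the tests can call.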
